A study of Rattus norvegicus with 24 samples.

Results

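The genes described here are the Hox genes of the HoxA, HoxB, HoxC and HoxD clusters, taken as every gene of the deposited table whose symbol is Hox followed by a cluster letter and a paralogue number. There were 32 of them among 21425 genes, 7 in HoxA, 10 in HoxB, 8 in HoxC and 7 in HoxD. RefSeq annotates 39 such genes in the rat, and Hoxa5, Hoxa6, Hoxa9, Hoxa10, Hoxc6, Hoxd8 and Hoxd11 were not analysed here. The libraries came from WT Sprague Dawley rats 5 days old, whose testis cells were used as a whole mixture and grown in a Matrigel matrix in serum-free medium. The baseline experiment used 1 litter and compared freshly isolated cells (called tissue) with cells cultured for 3, 5 or 7 days without added hormone, in 3 technical replicates per group. The induction experiment used 3 litters, whose cultures were given fresh medium on day 10 with the gonadotropins LH (50 mIU/mL) and FSH (20 mIU/mL) and were sampled just before (0 h) and 2, 12 and 48 h later. Each of its libraries combined 3 cultures of 1 litter. Cultures kept without hormone to the same times, and the 6 h samples, were not analysed here, so the effects of hormone, medium change and culture age cannot be told apart.

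Hox genes encode homeodomain transcription factors that give cells along the head-to-tail axis of the embryo their position. They sit in clusters, and genes at the low-numbered end are active early and towards the head, whereas high-numbered genes are active late and towards the tail. The pattern set in the embryo is kept by Polycomb repressors and Trithorax activators, and adult fibroblasts and stromal cells are known to retain a Hox profile of their place of origin. In the mouse, Hoxa10 and Hoxa11 are needed for the testes to descend.

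The bases before the annotated start are shown for the 4 HoxD genes on which the results turn, Hoxd10, Hoxd9, Hoxd4 and Hoxd3, because each of these neighbours was called higher than in the tissue on days 3 and 7 of culture. All 4 lie on the plus strand of chromosome 3 in this order, and the 250 bases before each start were taken from RefSeq on GRCr8. The windows are chr3:80001697-80001946 for Hoxd10, chr3:80007756-80008005 for Hoxd9, chr3:80021636-80021885 for Hoxd4 and chr3:80045876-80046125 for Hoxd3. Capitals mark CCAAT boxes (CCAAT) and GC boxes (GGGCGG) on either strand.
Hoxd10: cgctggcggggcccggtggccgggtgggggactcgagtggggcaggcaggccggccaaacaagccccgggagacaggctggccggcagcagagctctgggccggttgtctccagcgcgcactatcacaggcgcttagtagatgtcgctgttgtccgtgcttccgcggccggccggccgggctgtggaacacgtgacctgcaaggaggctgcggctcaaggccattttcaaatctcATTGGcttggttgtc
Hoxd9: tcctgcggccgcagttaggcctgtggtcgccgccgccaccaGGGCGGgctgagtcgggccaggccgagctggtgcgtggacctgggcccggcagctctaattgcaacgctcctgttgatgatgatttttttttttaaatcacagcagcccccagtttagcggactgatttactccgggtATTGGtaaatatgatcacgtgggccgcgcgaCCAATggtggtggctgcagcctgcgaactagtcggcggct
Hoxd4: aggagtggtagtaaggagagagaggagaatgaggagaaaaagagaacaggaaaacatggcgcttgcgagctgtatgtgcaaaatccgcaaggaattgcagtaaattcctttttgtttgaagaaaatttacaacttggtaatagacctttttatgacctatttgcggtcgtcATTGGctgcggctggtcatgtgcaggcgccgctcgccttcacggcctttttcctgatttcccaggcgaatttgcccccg
Hoxd3: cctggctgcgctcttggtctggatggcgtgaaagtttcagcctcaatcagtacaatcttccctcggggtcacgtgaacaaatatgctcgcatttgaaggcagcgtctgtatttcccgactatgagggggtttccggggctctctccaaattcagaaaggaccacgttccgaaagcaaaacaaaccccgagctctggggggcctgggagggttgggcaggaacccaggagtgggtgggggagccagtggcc
Hoxd10 had 1 CCAAT box, beginning 15 bases before the start, Hoxd4 had 1 and Hoxd9 had 2 with 1 GC box. The Hoxd3 window held none of the motifs searched. No TATA box (TATAAA), Hox-Pbx site (TGATTNAT) or cyclic AMP response element (TGACGTCA) was found in these 4 windows on either strand. Over 33469 RefSeq promoters cut to the same length, 34.0% held CCAAT, 30.5% GGGCGG, 12.9% TATAAA, 2.82% TGATTNAT and 1.59% TGACGTCA, and no 2 of these motifs overlapped in the windows shown. CpG dinucleotides numbered 21 in the Hoxd10 window, 20 in Hoxd9, 12 in Hoxd4 and 11 in Hoxd3, against a median of 5 over all promoters. Of the 32 Hox genes 15 had a promoter in the table. The 10 of these that stayed under 1 CPM in every group mean had 6 to 39 CpG dinucleotides and the 5 above it, the 4 shown and Hoxc4, had 3 to 21, so the ranges overlapped.

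Expression values are in CPM, in which each library's gene reads are divided by its total and multiplied to a fixed sum. The baseline libraries held 17.3 to 30.4 M reads and the induction libraries 15.8 to 28.3 M, so that 1 read was worth 0.0329 to 0.0579 CPM and 0.0353 to 0.0633 CPM. A gene at 0 could have had up to 3 reads by counting error alone, which is 0.0987 to 0.174 CPM in the baseline libraries and 0.106 to 0.19 CPM in the induction libraries. No transcript lengths were used, so CPM values are compared between libraries and not between genes. Values are means ± SD of n = 3 libraries unless stated, and differences are in log2(CPM + 1) ± SE, which understates the change of genes near 1 CPM. Adjusted p-values are limma's, over all genes tested in a comparison. The baseline replicates came from 1 litter, so its p-values measure technical spread.

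The testis cultures expressed a restricted set of Hox genes. Of the 32, 12 had a mean of at least 1 CPM in at least 1 of the 8 groups, and these were Hoxb2, Hoxb3, Hoxb9, Hoxc4, Hoxc5, Hoxc8, Hoxc9, Hoxc10, Hoxd3, Hoxd4, Hoxd9 and Hoxd10. They made up 3 of 10 HoxB genes, 5 of 8 HoxC genes, 4 of 7 HoxD genes and 0 of 7 HoxA genes. Hoxa5, Hoxa6, Hoxa9 and Hoxa10 are not among these 7. In RefSeq the Hoxa3 gene overlaps Hoxa4, Hoxa5 and Hoxa6, among others. Libraries without strand cannot tell their reads apart, so low HoxA counts may partly reflect how such reads were counted, which was not tested. The HoxA genes together drew 91 reads from the 24 libraries, 3 of them in the baseline experiment and 88 in the induction experiment, and the highest single value was 0.495 CPM for Hoxa4. HoxD drew 30399 reads, HoxB 7735 and HoxC 4841.

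The other 20 genes shared 623 reads. Hoxb1, a hindbrain gene, and Hoxd12, a limb gene, were listed at 0 in all 24 libraries. Every gene numbered 11 or higher stayed low, namely Hoxa11, Hoxa13, Hoxb13, Hoxc11, Hoxc12, Hoxc13 and Hoxd13 beside Hoxd12, and the highest value among them was 0.362 CPM for Hoxd13, a gene of digits and genitalia, in tissue replicate 3. The rest were Hoxd1 and lower-numbered genes of HoxA and HoxB, such as Hoxa4, Hoxb4 and Hoxb8. Hoxd1 came nearest to the level of 1 CPM, with 1.44 CPM in day 3 replicate 2 but 0 CPM in tissue replicate 3. Just inside it stood Hoxc5 and Hoxc8, with highest group means of 1.66 and 1.93 CPM.

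**Figure D1:**
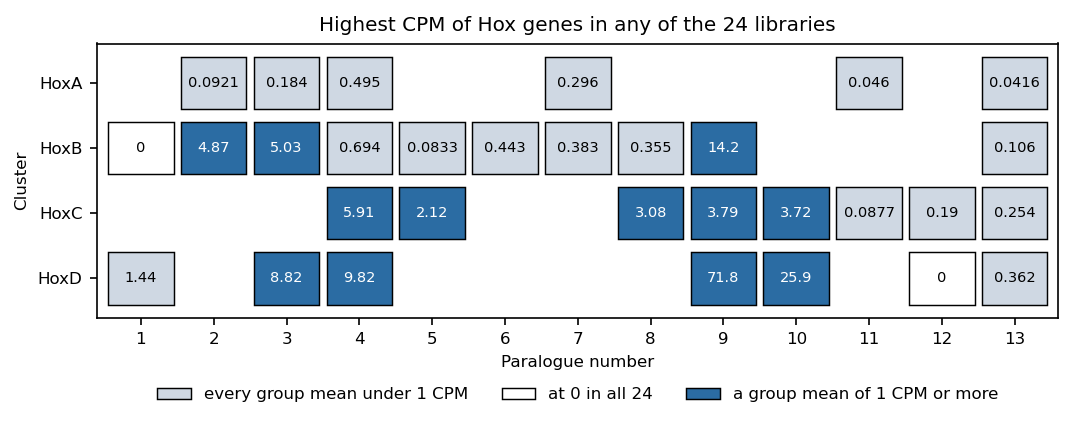
Grid of Hox genes by cluster (rows) and paralogue number (columns), with the highest CPM in any of the 24 libraries printed in each box. Dark boxes mark the 12 genes with a group mean of at least 1 CPM, pale boxes lower genes and white boxes Hoxb1 and Hoxd12 at 0; positions without a box are not shown here. The HoxA row has no dark box and no box from number 11 up is dark in any row.

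Two-sided tests were run on genes with at least 1 CPM in at least 3 libraries of an experiment. This kept 11 Hox genes in the baseline experiment, all of the 12 except Hoxc9, and 11 in the induction experiment, all except Hoxc5. The filter itself favours genes that were high in culture, since Hoxb3, Hoxc5 and Hoxc8 reached 1 CPM in no tissue library, whereas the other 8 did so in at least 1.

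Several Hox genes were called higher in culture than in the fresh tissue and none was called lower. On day 3, 5 of 11 tested Hox genes rose, namely Hoxd3, Hoxd4, Hoxd9, Hoxd10 and Hoxc10, and 0 fell, while 29.1% of all genes rose and 26.8% fell. On day 5, 4 rose, namely Hoxd3, Hoxd4, Hoxd10 and Hoxc8, and 0 fell, beside 29.6% and 30.3% of all genes. On day 7, 10 rose, all but Hoxc4, and 0 fell, beside 28.5% and 31.4%. Hoxb2, Hoxb3, Hoxc5, Hoxc8 and Hoxc10 did not reach 1 CPM in all 3 tissue libraries and passed the filter with culture libraries, so the counts over all 11 are a description. A smaller count was taken after values were seen. Among the 6 genes at or over 1 CPM in all 3 tissue libraries, 4 rose on day 3, 3 on day 5 and 5 on day 7, and 0 fell. The median difference over the 11 genes was 0.50, 0.15 and 0.78 on days 3, 5 and 7, and over all tested genes it was 0.02, -0.03 and -0.05. The 3 comparisons share the same 3 tissue libraries.

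Hoxd10, a posterior gene that patterns the hindlimb and its motor neurons in the mouse, measured 7.63, 6.24 and 8.49 CPM in the tissue libraries. It measured 17.9, 18.1 and 17.2 CPM on day 3, 18.8, 13.9 and 12.8 CPM on day 5, and 17.0, 25.4 and 21.2 CPM on day 7. All 9 culture libraries lay above all 3 tissue libraries. The share of all genes separated in this way was not counted in the baseline experiment, for this gene or those below. The day means were 2.38, 2.03 and 2.84 times the tissue mean. The differences were 1.16 ± 0.18, 0.93 ± 0.18 and 1.38 ± 0.18, with limma adjusted p = 9.65e-05, 0.000534 and 1.71e-05.

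Hoxd4, a gene of the hindbrain and the neck vertebrae, measured 1.58, 1.51 and 1.61 CPM in the tissue libraries. It measured 5.09, 3.69 and 5.97 CPM on day 3, 3.71, 5.32 and 2.38 CPM on day 5, and 5.34, 4.64 and 3.40 CPM on day 7. Again all culture libraries lay above all tissue libraries, and the culture days overlapped each other. The differences from tissue were 1.19 ± 0.23, 0.86 ± 0.23 and 1.07 ± 0.23, with limma adjusted p = 0.000716, 0.00615 and 0.00134. In RefSeq the Hoxd4 gene overlaps Mir10b and LOC120101573, and in libraries without strand their reads cannot be told apart.

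Hoxd3, a gene of the first neck vertebrae, was at 1.89 ± 0.455 CPM in tissue and at 4.06 ± 0.608, 4.26 ± 0.939 and 4.52 ± 2.03 CPM on days 3, 5 and 7. It rose on each day, by 0.81 ± 0.26, 0.86 ± 0.26 and 0.87 ± 0.26, with limma adjusted p = 0.0178, 0.0121 and 0.0115. On day 7 the groups overlapped, since replicate 3 measured 2.23 CPM and tissue replicate 1 measured 2.41 CPM. Hoxd9, a posterior gene that acts with its paralogues in the limb and lower spine, went from 11.0 ± 1.55 CPM to 18.0 ± 3.13, 11.9 ± 5.17 and 19.7 ± 3.67 CPM. It rose on day 3 by 0.66 ± 0.26 and on day 7 by 0.78 ± 0.26, with limma adjusted p = 0.047 and 0.021. On day 5 its difference was 0.02 ± 0.26, with limma adjusted p = 0.947, and the replicates spread from 6.24 to 16.4 CPM. Whether its day 5 level differed from day 3 was tested, and the difference of -0.64 ± 0.26 had limma adjusted p = 0.393.

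**Figure D2:**
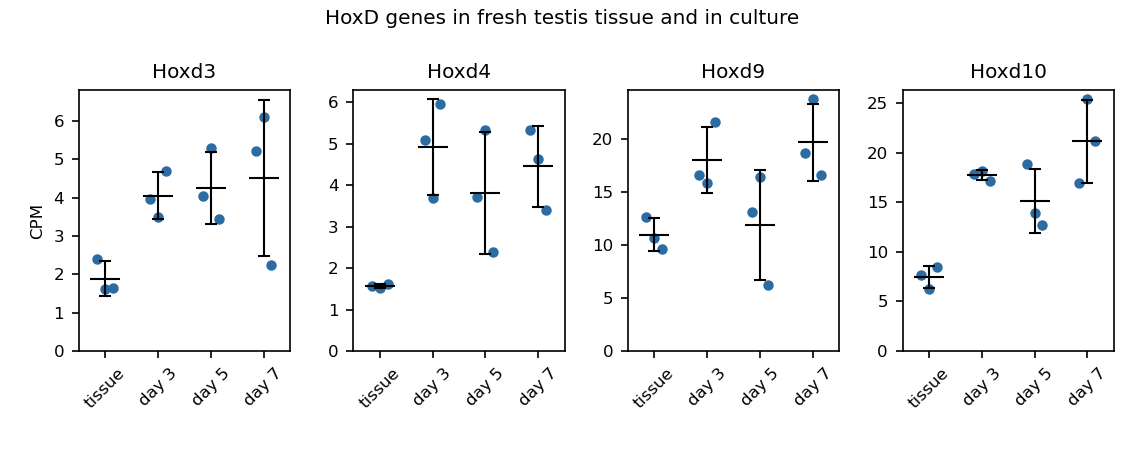
CPM of Hoxd3, Hoxd4, Hoxd9 and Hoxd10 in the tissue and on culture days 3, 5 and 7, with a point per library, a bar at the mean of 3 libraries and error bars of 1 SD; each panel has its own axis from 0. For Hoxd4 and Hoxd10 all 9 culture points lie above the 3 tissue points, and for Hoxd9 the day 5 points reach from 6.24 to 16.4 CPM, across the tissue range.

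Among the HoxC genes, Hoxc10, a lumbar gene that specifies hindlimb motor neurons, was at 0.939 ± 0.171 CPM in tissue and at 1.95 ± 0.790, 1.24 ± 0.546 and 2.05 ± 0.437 CPM in culture. It rose on days 3 and 7, by 0.58 ± 0.23 and 0.65 ± 0.23, with limma adjusted p = 0.0471 and 0.0256. Hoxc8, a gene of the thoracic skeleton, went from 0.476 ± 0.152 CPM to 0.752 ± 0.328, 1.43 ± 0.354 and 1.63 ± 0.864 CPM. It rose on day 5 by 0.72 ± 0.25 and on day 7 by 0.78 ± 0.25, with limma adjusted p = 0.024 and 0.0153, and in both groups all libraries lay above the tissue. Hoxc5 went from 0.361 ± 0.0529 CPM to 0.921 ± 0.0521, 0.574 ± 0.571 and 1.66 ± 0.407 CPM. It rose on day 7 by 0.96 ± 0.23, with limma adjusted p = 0.00249. Its day 3 libraries lay above the tissue too, but the difference of 0.50 ± 0.23 had limma adjusted p = 0.0764. Hoxc5 and Hoxc8 passed the filter through culture libraries alone. A higher level in culture was favoured by that choice, so their p-values are a description.

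Hoxc4 was the tested Hox gene that passed on no culture day. It was at 2.27 ± 0.513 CPM in tissue and at 2.44 ± 0.176, 1.98 ± 0.519 and 2.96 ± 1.16 CPM in culture, and the largest of its differences was 0.25 ± 0.21 on day 7, with limma adjusted p = 0.33. Hoxc4 and Hoxc5 overlap the Hoxc6 gene in RefSeq, and Hoxc5 also overlaps Mir615, so their reads may be shared. Hoxc9, a thoracic gene, was too low for the filter, at 0.145 ± 0.0989 CPM in tissue and 0.303 ± 0.260, 0.287 ± 0.193 and 0.700 ± 0.0434 CPM in culture. Its day 7 libraries lay above the tissue libraries, which were near the level of 3 reads. With edgeR's quasi-likelihood test on reads and no filter, day 7 passed narrowly, with adjusted p = 0.0491.

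The 3 tested HoxB genes were called on day 7 alone, although limma called no difference between days 3, 5 and 7 for them. Hoxb2, a hindbrain gene, went from 1.05 ± 0.211 CPM in tissue to 1.62 ± 0.685, 1.21 ± 0.644 and 2.27 ± 0.240 CPM, and rose on day 7 by 0.67 ± 0.24, with limma adjusted p = 0.0281. Hoxb3, a gene of the hindbrain and pharyngeal organs, went from 0.779 ± 0.0768 CPM to 1.22 ± 0.110, 0.790 ± 0.661 and 2.27 ± 0.963 CPM, and rose on day 7 by 0.83 ± 0.28, with limma adjusted p = 0.0213. RefSeq places LOC102550580 across Hoxb3. This gene too passed the filter through culture libraries alone, which favoured a higher level in culture. Hoxb9, a gene of the ribs and the mammary gland, was at 8.06 ± 1.74 CPM in tissue and at 8.44 ± 1.06, 6.90 ± 1.11 and 11.6 ± 2.44 CPM in culture. Its day 7 rise of 0.47 ± 0.19 had limma adjusted p = 0.0458, and its day 7 libraries overlapped the tissue.

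**Figure D3:**
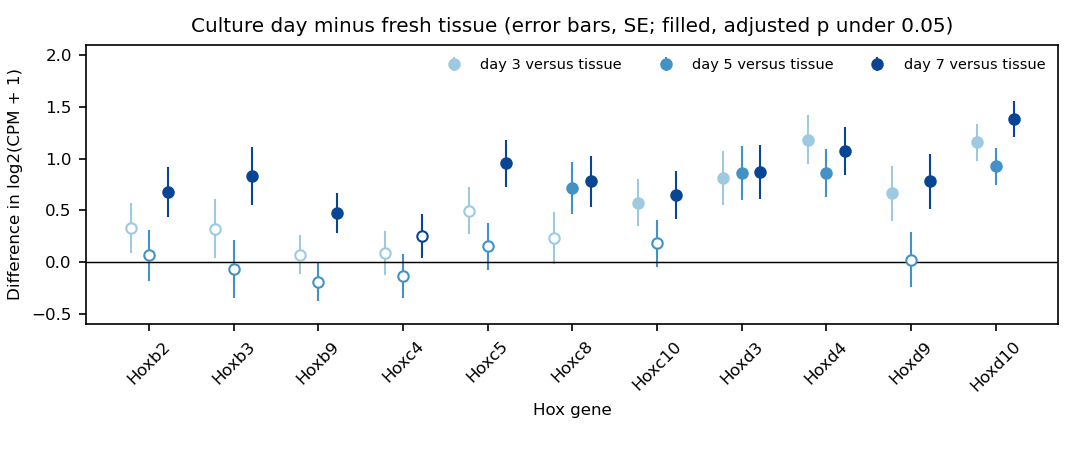
Difference in log2(CPM + 1) between each culture day and the fresh tissue for the 11 tested Hox genes in cluster order, with error bars of 1 SE and filled points for limma adjusted p under 0.05. Hoxd3, Hoxd4 and Hoxd10 have filled points on all 3 days, the HoxB genes on day 7 alone and Hoxc4 on none.

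By cluster, the 4 HoxD genes had median differences of 0.98, 0.86 and 0.97 on days 3, 5 and 7. For the 4 tested HoxC genes these were 0.37, 0.17 and 0.72, and for the 3 HoxB genes 0.32, -0.07 and 0.67. On day 7, 3 of 3 tested genes numbered 1 to 3 rose, beside 28.5% of all genes. Of those numbered 4 to 8, 3 of 4 rose, and of those numbered 9 to 13, 4 of 4. No gene numbered 1, 6, 7, 11, 12 or 13 was tested. Hoxb2, Hoxb3, Hoxc5, Hoxc8 and Hoxc10 passed the filter with culture libraries, so these medians and counts are a description. The difference between clusters was not tested.

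Several of these calls were lost under other settings or without a single library. With a pseudocount of 0.1, limma no longer called Hoxc10 on day 3 (adjusted p = 0.0577) or Hoxb2 and Hoxb3 on day 7 (0.0509 and 0.0982). With no filter it no longer called Hoxc10 and Hoxd9 on day 3 (0.0543 and 0.0775) or Hoxb9 on day 7 (0.0739), and edgeR did not call Hoxc10 on day 3 (0.0504). Hoxd4 and Hoxd10 kept their calls on all 3 days under 21 alternatives, with any 1 library left out among them. Hoxc5 kept its day 7 call under 20, although it passed the main filter through culture libraries alone. Hoxd3 lost its day 7 call without day 7 replicate 2, with limma adjusted p = 0.0602, and its day 3 call without tissue replicate 2, tissue replicate 3 or day 3 replicate 3, with adjusted p = 0.057 to 0.0626. Without 1 of 9 libraries, all 3 tissue and all 3 day 3 libraries among them with day 5 replicate 1 and day 7 replicates 1 and 3, the day 3 call of Hoxd9 was lost, with adjusted p = 0.053 to 0.144. Hoxc10 lost its day 3 call without any 1 of 8 of those libraries, all but day 3 replicate 1, with adjusted p = 0.0515 to 0.203.

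The day 5 call of Hoxc8 was lost without tissue replicate 1, tissue replicate 2, day 5 replicate 1 or day 5 replicate 3, with limma adjusted p = 0.0604 to 0.0896. On day 7, Hoxb2 was lost without tissue replicates 1 or 3 or day 7 replicates 1 or 3 (adjusted p = 0.0536 to 0.0947), and Hoxb3 without tissue replicates 1 or 2 or day 7 replicates 1 or 2 (0.056 to 0.0851). Hoxb9 was lost without tissue replicates 1 or 3, day 3 replicates 1 or 2, day 5 replicate 1 or day 7 replicates 1 or 3, with adjusted p = 0.0515 to 0.181. Hoxc8 was lost without tissue replicate 2 or day 7 replicates 2 or 3 (0.0546 to 0.077). Hoxc10 (0.0627 to 0.095) and Hoxd9 (0.0541 to 0.0841) were lost without tissue replicates 2 or 3 or day 7 replicate 2. Hoxc5 gained a day 3 call without day 5 replicates 2 or 3, with adjusted p = 0.0268 to 0.0379.

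Day 5 replicate 3 had the lowest of the 3 day 5 values for 10 of the 12 genes, Hoxb3 at 0.053 CPM and Hoxd9 at 6.24 CPM among them. It also listed the fewest genes above 0 of the 24 libraries, 14365. Without it the day 5 difference of Hoxd9 was 0.39, with limma adjusted p = 0.0899. Day 3 replicate 2 was lowest for 10 of 12 genes on day 3, yet had the highest Hoxd10 value of that day.

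Between culture days, 0 of 11 tested Hox genes were called by limma. From day 3 to day 5 the median difference was -0.26, and 0.0613% of all genes rose and 0.0536% fell. From day 5 to day 7 it was 0.47, and 0.0536% rose and 0.023% fell. From day 3 to day 7 it was 0.23, and 1.36% rose and 2.44% fell. At an unadjusted limma p under 0.05, 1 of the 11 genes passed from day 3 to day 5 (Hoxd9, lower). From day 5 to day 7, 6 passed (Hoxb2, Hoxb3, Hoxb9, Hoxc5, Hoxd9 and Hoxd10, all higher), and from day 3 to day 7, 1 (Hoxc8, higher). Among all 13055 tested genes, 1553, 1817 and 1936 passed at that level in the same order. edgeR called 0 in each of these 3 comparisons. DESeq2 called 1, Hoxb9 from day 5 to day 7, with 0 in the others, and Hoxc5 passed limma in that comparison without day 5 replicate 2, with adjusted p = 0.0477.

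Markers of the testis cell types also differed between culture and tissue. Fewer cells of a type and less RNA per cell cannot be told apart in these bulk libraries. The summed CPM of 7 interstitial stroma markers was 2413 to 2803 in tissue, 4080 to 4894 on day 3, 4564 to 5603 on day 5 and 7488 to 11505 on day 7. Over 6 peritubular myoid markers it was 1336 to 1505 in tissue, 2833 to 3346 on day 3, 3117 to 4192 on day 5 and 3884 to 4652 on day 7. On day 3, when 29.1% of all genes rose and 26.8% fell, 6 of 7 stroma markers rose and 1 fell, and 5 of 6 myoid markers rose. On days 5 and 7, 4 of 7 stroma markers rose and 1 fell, and 5 of 6 myoid markers rose. Of all genes, 29.6% and 28.5% rose on those days and 30.3% and 31.4% fell. From day 3 to day 7, 2 of 7 stroma markers rose and 2 fell, beside 1.36% and 2.44% of all genes. Their median difference was -0.40, so the stroma sum does not stand for each marker.

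Germ cell markers went the other way, from 497 to 527 CPM in tissue to 87.4 to 125 CPM in the culture libraries. On day 3, 7 of 8 fell, beside 26.8% of all genes. Sertoli cell markers (10 of 10 detected) summed to 3665 to 3853 CPM in tissue and 4738 to 6385 CPM in culture. Sums of 4 mesothelial markers rose from at most 1.61 CPM in tissue to 67.5 to 168 CPM in culture, with Upk3b at 0 on day 5. Macrophage markers were at 47.4 to 58.3 CPM in tissue and 19.4 to 34.4 CPM in culture, and 6 Leydig markers at 254 to 256 and 191 to 305 CPM. Endothelial markers, 4 in the table, were at 87.2 to 104 and 102 to 164 CPM, with Emcn at 0 on day 7.

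Markers of the epididymis and mesonephric duct, a tissue with Hox expression of its own, were at 37.2 to 45.9 CPM in tissue and 8.73 to 14.6 CPM in culture, with Cdh16 at 0 in all groups. Skeletal muscle markers were at 49.2 to 66.5 and 49.6 to 80.2 CPM, with Myog at 0 in all groups. This list shares Des with the peritubular myoid list, so its sum is not of skeletal muscle alone. The 2 erythroid markers were at 4.40 to 8.42 and 10.2 to 52.7 CPM, with Hbb at 0 in culture. The part of these shifts in the Hox differences was not tested.

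Genes of proteins that act with or on Hox genes are given by list, and their counts are to be read against the 29.1%, 29.6% and 28.5% of all genes that rose and the 26.8%, 30.3% and 31.4% that fell on days 3, 5 and 7. Of 7 tested genes of TALE homeodomain cofactors, which bind DNA together with Hox proteins, 4 rose and 2 fell on day 3, 2 rose and 2 fell on day 5, and 3 rose and 2 fell on day 7. Pknox2 went from 18.8 CPM in tissue to 127 CPM on day 7, a difference of 2.70 with limma adjusted p = 2.70e-09. Pbx2 (104 to 63.7 CPM) and Pknox1 (47.9 to 31.7 CPM) fell on day 7.

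Of 26 tested Polycomb genes, whose products keep Hox genes silent, 2 rose and 8 fell on day 3, 3 rose and 10 fell on day 5, and 2 rose and 10 fell on day 7, beside 26.8%, 30.3% and 31.4% of all genes that fell. On day 7 Rbbp4, a histone-binding subunit of the PRC2 complex, fell from 238 to 160 CPM and Rnf2, the ubiquitin ligase of PRC1, fell from 162 to 98.8 CPM. Cbx6, a reader subunit of PRC1, rose from 60.4 to 135 CPM. Of 11 tested Trithorax-group genes and H3K27 demethylases, which act against Polycomb, 1 rose and 6 fell on day 3, 2 rose and 5 fell on day 5, and 1 rose and 6 fell on day 7, beside the same shares. Psip1 (263 to 156 CPM), Kmt2b (151 to 109 CPM) and Ash2l (152 to 88.1 CPM) were among those that fell on day 7.

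Of 6 tested upstream regulators of Hox genes in the embryo, 2 rose and 3 fell on each culture day, beside 28.5 to 29.6% of all genes that rose and 26.8 to 31.4% that fell. Egr2, a hindbrain activator that stimulated cells also express, fell from 72.3 to 9.12 CPM by day 7, and Gmnn, a replication inhibitor, fell from 36.2 to 10.0 CPM. Of 12 other tested homeobox genes 3 rose and 3 fell on day 3, 4 rose and 4 fell on day 5, and 5 rose and 3 fell on day 7, beside the same shares. By day 7 Prrx1, a mesenchymal gene, rose from 11.2 to 37.9 CPM and Tgif1 from 64.6 to 84.9 CPM. None of these lists was tested as a set.

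Hormone addition was followed by no called change in a Hox gene. limma called 0 of 11 tested Hox genes at 2, 12 and 48 h against 0 h. Over all genes, 0% rose and 0% fell at 2 h and at 12 h, and 0.345% rose and 0.0482% fell at 48 h. At an unadjusted limma p under 0.05, 0 of the 11 Hox genes passed at 2, 12 or 48 h, beside 1327, 311 and 1614 of 12450 genes. For Hox genes, edgeR, DESeq2 and the fit with litter as a block each called 0. With the block, Hoxb2 had an unadjusted p under 0.05 at 2 h. Median differences over the 11 genes were -0.09, 0.06 and 0.10, beside -0.02, -0.04 and -0.03 over all genes. Over all genes the paired fit called 77 genes at 2 h, 0 at 12 h and 541 at 48 h, DESeq2 378, 9 and 419, and edgeR 6, 0 and 38.

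At 2 h, 2 of 11 tested Hox genes, Hoxb2 and Hoxd10, had libraries that did not overlap those at 0 h, beside 16% of all tested genes, and neither passed the test. At 12 h this held for 1, Hoxb2, beside 8.71% of all genes, and at 48 h for 0, beside 20.4%. Hoxb2 was at 3.69, 3.29 and 3.63 CPM at 0 h and at 4.59, 4.87 and 4.26 CPM at 2 h in litters 1, 2 and 3. It was higher in 3 of 3 litters, with a difference of 0.30 ± 0.14 and limma adjusted p = 0.47 without litter in the fit. With litter as a block the difference was 0.30 ± 0.13, with limma adjusted p = 0.249. Hoxd10 was at 17.7, 18.4 and 17.3 CPM at 0 h and at 14.7, 15.6 and 14.5 CPM at 2 h, all lower, with a difference of -0.24 ± 0.15 and limma adjusted p = 0.651. At 48 h Hoxd10 was at 25.6, 16.9 and 23.4 CPM, higher than at 0 h in litters 1 and 3 and lower in litter 2, with a difference of 0.27 ± 0.15 and limma adjusted p = 0.473. Hoxd9 was at 51.4 ± 3.65, 43.8 ± 4.72, 54.0 ± 12.6 and 59.5 ± 11.1 CPM at 0, 2, 12 and 48 h, and its mean moved in the same direction as that of Hoxd10 at each time.

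The other genes are given by group mean. In the order 0, 2, 12 and 48 h, Hoxd4 was at 7.47 ± 2.05, 6.83 ± 2.15, 6.98 ± 1.23 and 7.07 ± 1.11 CPM and Hoxd3 at 5.61 ± 2.85, 4.60 ± 2.93, 5.23 ± 0.689 and 5.56 ± 0.403 CPM. Hoxb9 was at 9.29 ± 1.03, 11.6 ± 2.44, 9.77 ± 1.58 and 8.53 ± 1.22 CPM and Hoxb3 at 3.75 ± 0.294, 3.51 ± 0.908, 4.14 ± 0.320 and 4.38 ± 1.07 CPM. Of these none passed the test at any time. Hoxc4 was at 4.33 ± 0.675, 4.43 ± 1.08, 4.53 ± 1.29 and 3.90 ± 0.596 CPM, Hoxc9 at 3.20 ± 0.536, 2.65 ± 0.575, 3.01 ± 0.794 and 2.97 ± 1.05 CPM and Hoxc10 at 2.86 ± 0.604, 2.70 ± 0.110, 3.36 ± 0.320 and 3.20 ± 0.353 CPM. Hoxc5, not tested here, was at 0.731 ± 0.0746, 0.637 ± 0.420, 0.628 ± 0.411 and 0.520 ± 0.249 CPM.

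**Figure D4:**
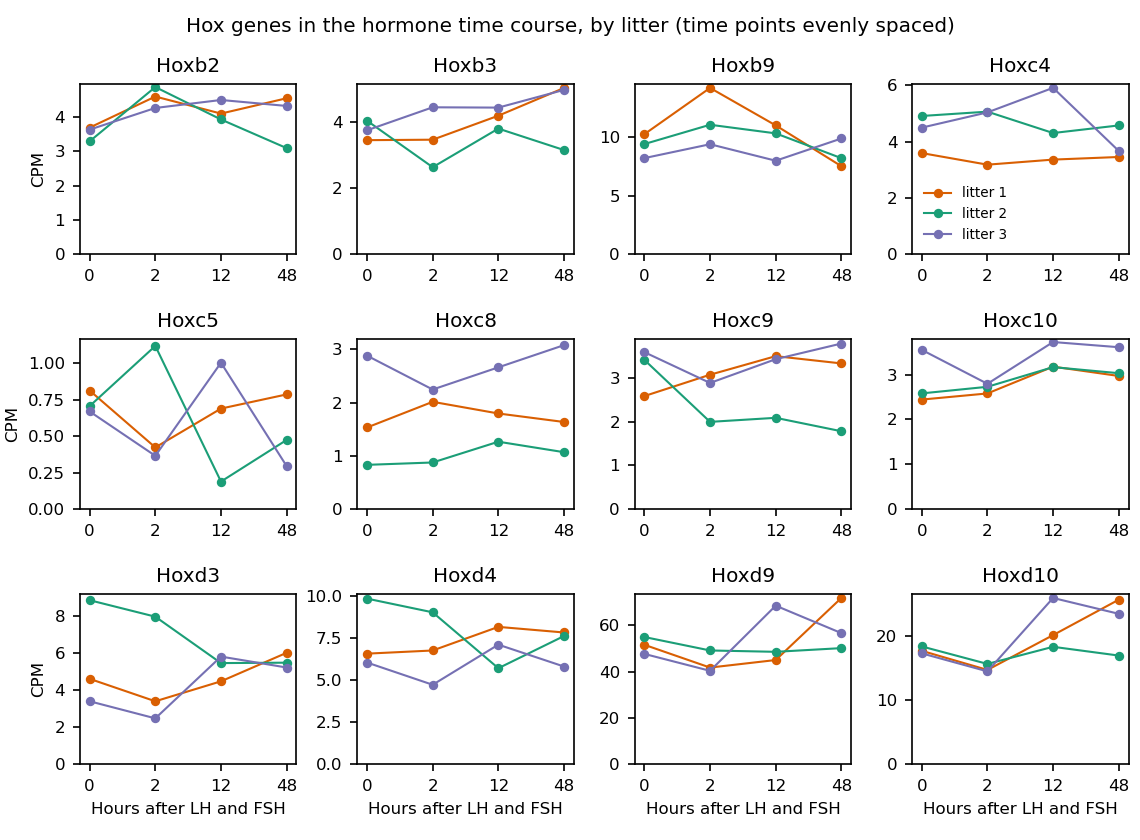
CPM of the 12 Hox genes with a group mean of at least 1 CPM at 0, 2, 12 and 48 h after LH and FSH, with a line per litter; each panel has its own axis from 0 and time points are evenly spaced. The lines of Hoxc8 run apart, with litter 2 lowest and litter 3 highest at every time, and no panel shows a change called by limma.

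Litters differed more than time points for Hoxc8. It measured 1.53 to 2.01 CPM in the 4 libraries of litter 1, 0.833 to 1.27 CPM in litter 2 and 2.24 to 3.08 CPM in litter 3, and the litters did not overlap. In an F test of the difference between litters, with time in the fit, Hoxc8 had limma adjusted p = 0.00269 and was the 1 of 11 tested Hox genes called, beside 23.3% of all genes. Hoxc4 was lowest in litter 1, at 3.18 to 3.59 CPM, with limma adjusted p = 0.0563. The litters also differed in stroma markers, whose sum was 15082 to 18419 CPM in litter 1, 10470 to 13024 CPM in litter 2 and 19116 to 29570 CPM in litter 3, in the same order as Hoxc8. Other marker lists had other orders. The Sertoli sum was 3764 to 4256 CPM in litter 1, 4383 to 4665 CPM in litter 2 and 2957 to 3975 CPM in litter 3. A sum need not stand for each of its markers, and the part of these marker differences in the Hoxc8 difference was not tested.

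Levels in the induction cultures stood apart from those of the baseline cultures for some genes, and levels were not tested between the experiments. Hoxd9 was at 6.24 to 23.8 CPM in the 12 baseline libraries and 40.4 to 71.8 CPM in the 12 induction libraries, and Hoxc9 at 0.0329 to 0.746 CPM and 1.78 to 3.79 CPM. For Hoxd10 the ranges were 6.24 to 25.4 CPM and 14.5 to 25.9 CPM. Genes whose mean exceeded 20 CPM in either experiment but stayed below 1 CPM in the second numbered 218 of 21425, and 0 of them were Hox genes. Only Hoxd9 among the Hox genes had a mean over 20 CPM in an experiment, 52.2 CPM in induction and 15.2 CPM in baseline. The 0 therefore says little about how Hox genes differ between the experiments. Litter, culture age and counting cannot be told apart in this difference.

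The microRNA genes inside the clusters were looked up because they share the clusters with the Hox genes and their products are known to repress Hox transcripts. The 3 miR-196 copies, in HoxA (Mir196b), HoxC (Mir196a) and HoxB (Mir196c), have the same seed, bases 2 to 8, given in capitals in the RefSeq mature sequences.
rno-miR-196a-5p: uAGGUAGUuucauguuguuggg
rno-miR-196b-5p: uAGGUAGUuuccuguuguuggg
rno-miR-196c-5p: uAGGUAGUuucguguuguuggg
Poly-T selection does not capture mature microRNAs, so the rows count reads over the hairpin genes. Mir196c was detected in all 24 libraries, at 0.412 to 2.14 CPM. Its means were 1.30 ± 0.584, 1.38 ± 0.559, 1.71 ± 0.615 and 1.34 ± 0.413 CPM in tissue and on days 3, 5 and 7, and 1.25 ± 0.737, 0.985 ± 0.516, 0.781 ± 0.0847 and 0.537 ± 0.0549 CPM at 0, 2, 12 and 48 h. None of the 9 comparisons passed, and at 48 h the difference was -0.50 ± 0.24, with limma adjusted p = 0.41. Mir10a, Mir10b, Mir196a and Mir615 stayed at or under 0.173 CPM in every library, and Mir196b was not analysed here.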

How the data were processed

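Messenger RNA was measured in 24 libraries of rat testis cells. Per the labels' protocols, RNA was selected with poly-T beads and made into libraries without strand. Alignment used STAR and the rat build mRatBN7.2, per the submitters' processing notes, and the counter and gene annotation are not given in the sources used here. The deposited values are CPM, scaled by the authors, and 100% of them were whole multiples of 1 read within 0.01 read, so reads could be recovered; 2.93 to 4.71% of reads lay outside the listed genes. No library was a copy of another in its group, since squared differences between replicates averaged 6.15 to 72.0 times those of counting error. Libraries of different groups were not compared in this way.

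A limma model (3.58.1, R 4.3.3) of log2(CPM + 1) on group was fitted to the 12 libraries of each experiment with an empirical Bayes trend. Genes with at least 1 CPM in at least 3 libraries were kept (13055 baseline, 12450 induction). The tests were two-sided, and calls needed a Benjamini-Hochberg adjusted p under 0.05 over all genes of 1 of the 9 comparisons. The fit was tested on simulated data. The alternatives were 2 pseudocounts, 2 filters, TMM scaling, a fit of only the groups compared, edgeR 4.0.16 and DESeq2 1.42.0 on recovered reads, a replicate block and each library left out. Same-litter induction libraries deviated together (median correlation 0.482 over 18 pairs, 16 above 0.1), and the labels give the litters, so litter pairs them.

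Hox genes with a group mean of at least 1 CPM were named with their values, per library where a called difference reached 1; from other gene lists at most 3 called genes with the largest mean were named. Hox genes shown by library for other reasons, the litter test, Hoxc9 without filter, the count over genes at the filter in all tissue libraries, the overlap with 0 h and the microRNA rows were chosen after values were seen. The members and lists were chosen with earlier results of these data known. Gene overlaps, promoters and microRNAs came from RefSeq on GRCr8 and were matched by symbol. Some genes of these lists are not reported here by name.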

Additional observations from a re-analysis of the deposited data

How the results depend on the processing

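Hox differences from tissue reversed under no alternative where they were called. The 5 genes called on day 3 became 3 without a filter, 4 with a pseudocount of 0.1 or with edgeR, and 2 to 6 with 1 library left out. The 10 called on day 7 became 5 with a filter of 5 CPM, which tests fewer genes, 8 with a pseudocount of 0.1 and 5 to 10 with 1 library left out. From day 5 to day 7 the count of 0 became 1 with DESeq2 and 0 to 1 with 1 library left out. The cause was not tested otherwise. Counts of 0 in the other comparisons stayed at 0. The baseline replicate numbers share only a number (median correlation -0.000715 over 18 pairs, 5 above 0.1); with them as a replicate block the calls were 4, 4 and 9 on days 3, 5 and 7, and the calls lost were Hoxc10 on day 3 (limma adjusted p = 0.0625) and Hoxb9 on day 7 (0.0648). With litter as a replicate block, 0 Hox genes were called at 2, 12 and 48 h, as without it, while calls over all genes went from 0 to 77 at 2 h and from 49 to 541 at 48 h. Over all genes, TMM scaling moved the median difference by at most 0.06; it changed the share of calls that were higher from 35.8% to 49.8% between days 3 and 7 and from 70.0% to 88.9% between days 5 and 7. Low depth limits Hox genes near 1 CPM.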

Other observations

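Rhox genes are X-linked homeobox genes of the reproductive tract that belong to no Hox cluster. Values are given for the 3 of them that passed the filter in the baseline experiment, chosen after values were seen. All 3 passed it through the tissue libraries alone, so a lower level in culture is fixed by that choice and no test is given. Rhox13, a germ cell gene in the mouse, was at 4.13 ± 1.44 CPM in tissue and 0.0491 ± 0.0851, 0.222 ± 0.232 and 0.217 ± 0.164 CPM on days 3, 5 and 7 (n = 3). Rhoxf2b was at 2.76 ± 0.464 CPM in tissue and 0.274 ± 0.0533 CPM on day 3, and Rhox10 at 1.18 ± 0.151 and 0.0548 ± 0.0181 CPM. Rhox5 was under the filter, at 0.515 ± 0.204 CPM in tissue and 0.393 ± 0.168 CPM on day 3. From tissue to day 3, 7 of 8 germ cell markers fell, beside 26.8% of all genes. Their summed level was 497 to 527 CPM in tissue and 88.6 to 125 CPM on day 3. The part of germ cells in the Rhox levels was not tested.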
